A study of Mus musculus with 6 samples.

Results

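Antioxidant enzymes and metallothioneins were examined in cells sorted by embryonic lineage from the mouse proximal aorta. The 10 genes were the superoxide dismutases *Sod1*, *Sod2* and *Sod3*, the glutathione peroxidases *Gpx1*, *Gpx3* and *Gpx4*, the catalase gene *Cat*, the peroxiredoxin *Prdx1*, and the metallothioneins *Mt1* and *Mt2*. They were taken by symbol from the 24421 rows of the deposited matrix, as a list drawn up with earlier results of these data known and with no threshold on expression. All 10 had a row, and all 10 were among the 10185 rows that were tested, those that reached 1 TPM in 3 or more of the 6 libraries. TPM is the level of a transcript per length relative to the total of its library, so levels of different genes can be compared. The study traced the cells of 2 origins of the aortic root and ascending aorta and sequenced 3 libraries of each. All mice were of the 129S6/SvEv strain, were 8 weeks old, and carried the CAG-Sun1/sfGFP tracer, which turns on a green nuclear label once Cre has acted. The Cre allele was Mef2cSHF for the secondary heart field (SHF) libraries and Wnt1-Cre2 for the cardiac neural crest (CNC) libraries, and no drug or further allele is named for either group. The column names of the deposited matrix mark all 6 libraries as WT, read here as wild type. Minced tissue was digested with collagenase and elastase at 37 degrees before living GFP+ cells were sorted and their RNA was amplified by the SmartSeq2 protocol. Cre marks everything that descends from a progenitor, so each library holds every labelled cell type of its lineage, and the alleles, like any mixture of cell types they label, cannot be told apart from the lineage itself. Values are given in the order of replicates 1, 2 and 3 of each lineage. The sex of the mice and whether a library came from 1 animal are not given in the sources used here.

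Aerobic cells turn superoxide into hydrogen peroxide with superoxide dismutases, and glutathione peroxidases, catalase and peroxiredoxins then turn peroxide into water or alcohols. The enzymes divide the work by place: SOD1 and GPX1 act mainly in the cytosol, SOD2 in the mitochondrial matrix, catalase in peroxisomes, and SOD3 and GPX3 outside the cell, where SOD3 is known in arteries as the form bound to the extracellular matrix. Metallothioneins are small proteins that hold zinc and copper through cysteine thiols, scavenge oxidants, and are known to be induced by metals, glucocorticoids and stress.

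The coding sequences of *Mt1* and *Mt2* are shown because their cysteine codons, in capitals, are what makes these proteins metal binders, and because the pair are near copies whose reads could in principle be assigned to the wrong gene. Both were read from GENCODE M21 transcripts on GRCm38, the build called mm10.
*Mt1*: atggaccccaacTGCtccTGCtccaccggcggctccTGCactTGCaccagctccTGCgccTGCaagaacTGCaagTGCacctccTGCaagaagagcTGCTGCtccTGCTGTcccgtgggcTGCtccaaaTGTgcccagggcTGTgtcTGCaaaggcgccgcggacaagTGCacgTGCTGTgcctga
*Mt2*: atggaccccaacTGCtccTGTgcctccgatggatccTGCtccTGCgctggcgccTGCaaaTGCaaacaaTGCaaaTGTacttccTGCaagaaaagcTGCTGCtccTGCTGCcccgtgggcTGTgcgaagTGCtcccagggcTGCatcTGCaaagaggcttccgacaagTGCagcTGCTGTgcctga
Each coding sequence has 186 bases and 61 codons before the stop, and 20 of those codons, 32.8%, encode cysteine. All 20 cysteine codons stand at the same positions in both genes, whereas 46 of the 61 codons encode the same amino acid. The sequences are identical at 148 of 186 bases, 79.6%, and the longest run of bases that the transcripts share is 20. A read longer than that run therefore differs between the genes somewhere along its length. *Mt2* lies at chr8:94172664-94173568 and *Mt1* at chr8:94179082-94180327, both on the plus strand with 5513 bases between them. An annotated antisense gene, *Gm45774*, overlaps an exon of *Mt2* on the opposite strand and had no row of its own, so reads from it could not be separated from *Mt2*.

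The glutathione peroxidases are shown around their catalytic selenocysteine, which is encoded by an in-frame TGA, in capitals, a codon that elsewhere ends translation.
*Gpx1*: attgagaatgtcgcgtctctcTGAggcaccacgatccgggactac
*Gpx3*: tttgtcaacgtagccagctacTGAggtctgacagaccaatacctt
*Gpx4*: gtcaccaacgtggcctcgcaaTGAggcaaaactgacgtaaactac
The selenocysteine codon was codon 47 of 201 in *Gpx1*, 73 of 226 in *Gpx3* and 129 of 253 in *Gpx4*, counted in the annotated coding sequence. The coding sequence of *Gpx4* is that of a long annotated form, and the matrix gives 1 value for all forms of the gene. A pseudogene, *Gpx4-ps2*, carries the same name in the annotation, so some of the reads behind *Gpx4* may be uncertain. The other members are also protein-coding genes, at chr16:90220754-90226329 for *Sod1*, chr17:13006846-13040063 for *Sod2*, chr5:52363791-52371418 for *Sod3*, chr9:108338903-108340343 for *Gpx1*, chr11:54902453-54910377 for *Gpx3*, chr10:80047166-80056439 for *Gpx4*, chr2:103453849-103485160 for *Cat* and chr4:116685544-116700822 for *Prdx1*.

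Most of these transcripts were abundant in the aortic cells of both lineages. All 10 genes were above 0 in all 6 libraries, and 8 of the 10 were among the 1000 most abundant rows by mean TPM. Together the 10 transcripts made up 0.838%, 0.54% and 0.915% of all TPM in the SHF libraries and 0.664%, 0.684% and 0.672% in the CNC libraries. The SHF shares lay on both sides of the CNC shares, which were close to each other.

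By mean TPM over the 6 libraries the order was *Gpx3* at 1642, *Sod1* at 1405, *Mt1* at 1121, *Sod3* at 1006, *Prdx1* at 810.7, *Mt2* at 379.6, *Gpx4* at 371.4, *Gpx1* at 325.2, *Cat* at 92.4 and *Sod2* at 36.5. The secreted peroxidase *Gpx3* ranked 89 among all rows, and the mitochondrial *Sod2* ranked 3534. The ranges of neighbours in this order did not overlap only between *Prdx1* and *Mt2* and between *Cat* and *Sod2*. *Gpx1* was above *Cat* in 6 of 6 libraries although their ranges overlapped, and each of the other pairs of neighbours kept its order in 3 or 4 of the 6 libraries. The order of neighbours at the top, from *Gpx3* to *Prdx1*, was thus not resolved by 6 libraries. Genes further apart there can still differ, since *Sod1* ranged from 1169 to 1920 TPM and *Prdx1* from 656 to 983 TPM.

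**Figure D1:**
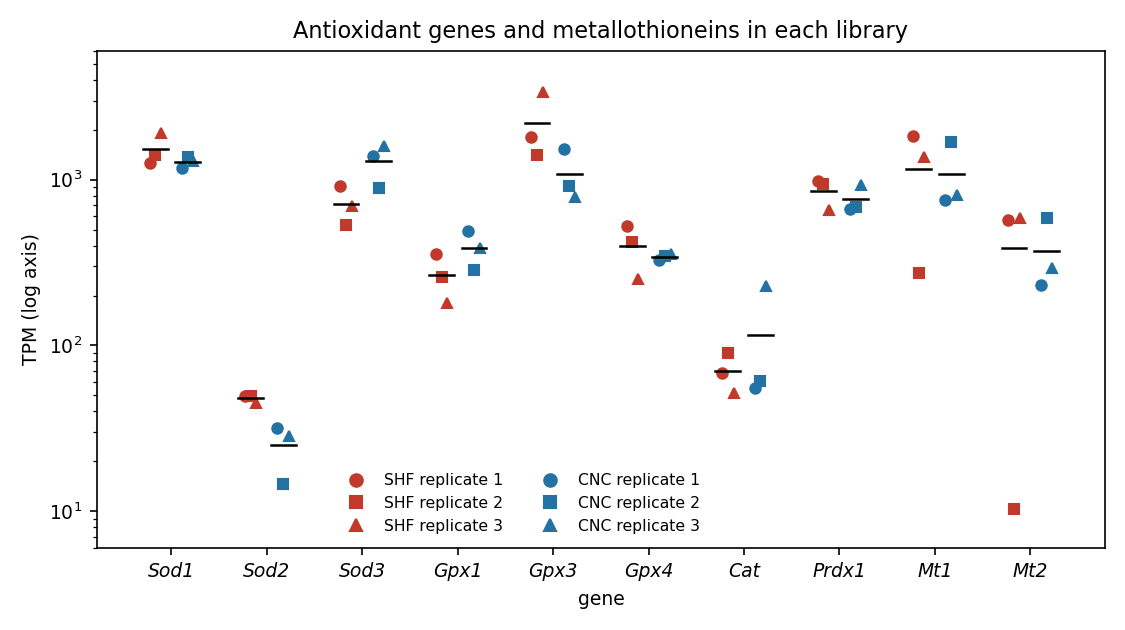
TPM (log axis) of the 10 genes in each of the 6 libraries, SHF and CNC shown as separate points, with a horizontal bar at each lineage's mean. The lineages overlap for every gene but *Sod2*, where SHF replicates lie at 45.2 to 49.5 and CNC replicates at 14.6 to 31.8, and *Mt2* has the widest range, from 10.3 to 587 TPM.

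Of the superoxide dismutases, *Sod2* had the higher mean in SHF cells and *Sod3* in CNC cells, and *Sod1* was high in both lineages, with no difference past the test. *Sod2*, the manganese enzyme of mitochondria, was at 49.4, 49.5 and 45.2 TPM in the SHF libraries and at 31.8, 14.6 and 28.6 TPM in the CNC libraries. Every SHF library was above every CNC library, and the SHF values were nearly equal. The means were 48.0 ± 2.44 and 24.97 ± 9.15 TPM (SD, n = 3 each). On the log2(TPM + 1) scale, used for every difference here, SHF minus CNC was 0.99 (95% interval -0.47 to 2.44), which did not pass the threshold of 0.05 (limma with Benjamini-Hochberg adjustment over 10185 genes, adjusted p = 0.879). An exact two-sided permutation test gave p = 0.1, the smallest that 3 libraries against 3 allow. *Sod2* was the only 1 of the 10 genes whose lineages did not overlap, and among all tested genes 6.11% were higher in every SHF library and 5.68% in every CNC library, so 1 in 10 is close to the background. In bulk libraries such as these, fewer cells of a type and less RNA per cell cannot be told apart.

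*Sod3*, the extracellular enzyme, leaned the other way. Its levels were 922, 531 and 698 TPM in the SHF libraries and 1387, 888 and 1606 TPM in the CNC libraries. CNC replicate 2 lay just under SHF replicate 1, and the other 2 CNC libraries lay above all SHF libraries. The means were 717 ± 196 TPM in SHF and 1294 ± 368 TPM in CNC (SD, n = 3 each), and SHF minus CNC was -0.84 on the log2 scale (95% interval -1.52 to -0.16). The unadjusted limma p was 0.0194 and the Benjamini-Hochberg adjusted p was 0.737, so the difference did not pass the test. When the libraries were rescaled by median-of-ratios factors, SHF replicate 1 came to 847 and CNC replicate 2 to 851. The lineages then no longer overlapped, by this narrow margin only, as was so for 11.8% of all genes tested. The summed TPM of 10 fibroblast genes moved in the same direction, at 31448, 29221 and 32484 in the SHF libraries and 52247, 40269 and 54798 in the CNC libraries, and its part in the *Sod3* difference was not tested.

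*Sod1*, the copper-zinc enzyme of the cytosol, was the most even in level of the dismutases. Its levels were 1262, 1412 and 1919.8 TPM in the SHF libraries and 1169, 1372 and 1297 TPM in the CNC libraries. The highest library was 1.64 times the lowest, and the lineages overlapped. SHF minus CNC was 0.24 on the log2 scale, with a 95% interval from -0.30 to 0.78 (limma, adjusted p = 0.904). As a share of the TPM of the 3 dismutases, *Sod3* made up 41.3%, 26.6% and 26.2% in the SHF libraries and 53.6%, 39% and 54.8% in the CNC libraries. Only CNC replicate 2 and SHF replicate 1 kept these shares from separating.

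Copper reaches SOD1 through the chaperone *Ccs* and reaches SOD3 through the Golgi pump *Atp7a*, which receives it from *Atox1*. *Ccs* and *Atp7a*, picked out after their values were seen, were each higher in every SHF library than in every CNC library. *Ccs* was at 72.2, 40.7 and 111 TPM in the SHF libraries and at 3.02, 34.8 and 23.8 TPM in the CNC libraries, with SHF minus CNC at 2.20 on the log2 scale (limma, adjusted p = 0.812). *Atp7a* was at 19.4, 18.8 and 12.4 TPM in the SHF libraries and at 0, 3.61 and 4.57 TPM in the CNC libraries (limma, adjusted p = 0.874). Neither difference passed the test, and *Atox1* had means of 239 ± 39.8 and 230.1 ± 84.3 TPM (SD, n = 3 each) in SHF and CNC.

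Of the 3 glutathione peroxidases among the members, the secreted *Gpx3* led in every library and had the widest range. Its levels were 1805, 1412 and 3402 TPM in the SHF libraries and 1532, 919.7 and 782 TPM in the CNC libraries. SHF replicate 3 was far above the others, and CNC replicate 1 lay above SHF replicate 2, so the lineages overlapped. The means were 2206 ± 1053 and 1078 ± 399 TPM (SD, n = 3 each). SHF minus CNC was 0.99 on the log2 scale (95% interval 0.20 to 1.78), with an unadjusted limma p of 0.0182 and an adjusted p of 0.733. *Gpx3* made up 67.1%, 67.5% and 88.8% of the TPM of the 3 peroxidases in the SHF libraries and 65.3%, 59.4% and 51.3% in the CNC libraries. These shares did not overlap between the lineages, but replicates 1 of the lineages were close, at 67.1% and 65.3%. The levels of 11.8% of all genes tested did not overlap either, and the shares were not tested.

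*Gpx1*, the peroxidase of the cytosol, was at 357, 259 and 179 TPM in the SHF libraries and at 488, 284 and 384 TPM in the CNC libraries. Its SHF mean of 265 ± 89.1 TPM was below its CNC mean of 385 ± 102 TPM (SD, n = 3 each), but SHF replicate 1 was above CNC replicate 2. SHF minus CNC was -0.56 on the log2 scale (95% interval -1.35 to 0.23; limma, adjusted p = 0.874). *Gpx4*, the peroxidase that reduces lipid hydroperoxides in membranes, was at 528, 421 and 251 TPM in the SHF libraries and at 327, 344 and 357 TPM in the CNC libraries. The CNC libraries were nearly equal and lay inside the wide SHF range. SHF minus CNC was 0.16 on the log2 scale (95% interval -0.58 to 0.90; limma, adjusted p = 0.95), and it turned to -0.0755 when SHF replicate 1 was left out.

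Both peroxide-removing enzymes outside the glutathione system had overlapping lineages. *Prdx1*, a thioredoxin-dependent peroxidase, had the narrowest range of the members, at 983, 942 and 656 TPM in the SHF libraries and at 667, 680.5 and 935 TPM in the CNC libraries. The highest library was 1.5 times the lowest, and SHF minus CNC was 0.17 on the log2 scale (95% interval -0.44 to 0.78; limma, adjusted p = 0.933). *Cat* was at 68.4, 89.6 and 51.6 TPM in the SHF libraries and at 55, 61.3 and 228 TPM in the CNC libraries.
CNC replicate 3 stood alone for *Cat*, and the other 5 libraries lay between 51.6 and 89.6 TPM. SHF minus CNC was -0.42 on the log2 scale (95% interval -1.75 to 0.90; limma, adjusted p = 0.925) and turned to 0.23 without CNC replicate 3.

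The metallothioneins varied more within a lineage than between the lineages, and they did so together. *Mt1* was at 1834, 274 and 1365 TPM in the SHF libraries and at 752, 1688 and 812 TPM in the CNC libraries. *Mt2* was at 570.01, 10.3 and 584.5 TPM in the SHF libraries and at 231, 587 and 295 TPM in the CNC libraries. For both genes SHF replicate 2 was the lowest of the 6 libraries, CNC replicates 1 and 3 were intermediate, and SHF replicates 1 and 3 and CNC replicate 2 were high. From the lowest to the highest library *Mt1* spanned 6.69 times and *Mt2* 57.1 times.

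SHF minus CNC was -0.20 on the log2 scale for *Mt1* (95% interval -1.52 to 1.13; limma, adjusted p = 0.967) and -1.14 for *Mt2* (95% interval -3.79 to 1.51; limma, adjusted p = 0.904). Without SHF replicate 2 both differences changed sign, to 0.65 for *Mt1* and 0.75 for *Mt2*. SHF replicate 2 also had the fewest rows above 0 TPM, 9255 against 9653 to 11858 in the other libraries, and the part of that in its metallothionein values was not tested. The intervals are wide enough that neither a higher nor a lower level in either lineage was resolved.

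Across the 6 libraries the log2(TPM + 1) values of *Mt1* and *Mt2* had a Pearson r of 0.953 (exact permutation p = 0.00694, two-sided) and a Spearman rho of 0.829 (exact permutation p = 0.0583, two-sided), the 1 relation tested. Without the 2 libraries farthest from the median of *Mt1*, SHF replicates 1 and 2, r was 0.968 in the remaining 4. The ratio of *Mt1* to *Mt2* was 3.22, 26.6 and 2.33 in the SHF libraries and 3.26, 2.88 and 2.75 in the CNC libraries. In 5 libraries the ratio was thus between 2.33 and 3.26, and in SHF replicate 2 *Mt2* was lower still than *Mt1*.

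**Figure D2:**
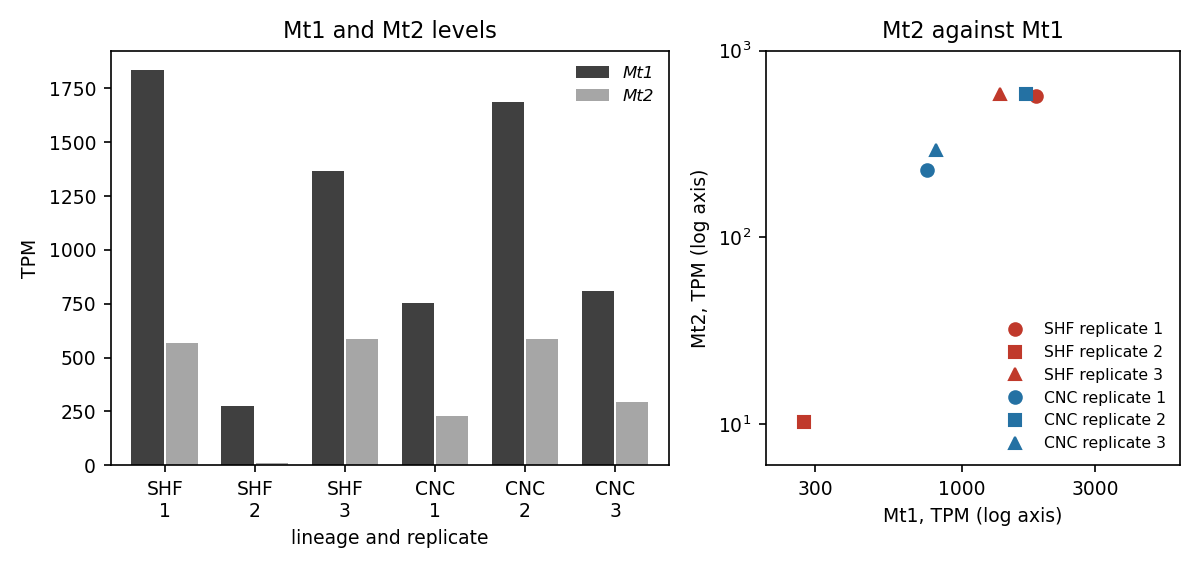
The bars at left give the TPM of *Mt1* (dark) and *Mt2* (light) in each library on a linear axis from 0, and the points at right set *Mt2* against *Mt1* (TPM, both axes log), 1 per library, coloured by lineage. SHF replicate 2 sits at 274 and 10.3 TPM, apart from the other 5 libraries, and the lineages are interleaved among the others.

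Among the 10184 other genes tested, those with the highest Pearson r with *Mt1* over the 6 libraries were *Slc30a6*, a zinc transporter of the Golgi, at 0.994, *Elmsan1* at 0.991 and *Rbpj*, the DNA-binding factor of Notch signaling, at 0.986. *Slc30a6* was at 51.4, 1.85 and 25.3 TPM in the SHF libraries and at 10.01, 35.6 and 10.6 TPM in the CNC libraries, with SHF replicate 2 again the lowest. *Mt2* was in position 37 of that order. *Nfe2l2*, which encodes the oxidant-sensing factor Nrf2, was in position 45, at 142, 17.6 and 175 TPM in the SHF libraries and at 97.3, 137 and 79.5 TPM in the CNC libraries. *Mtf1*, the zinc-sensing activator of metallothionein genes, was in position 582, at 4.91, 0.81 and 3.47 TPM in the SHF libraries and at 1.48, 2.92 and 0.62 TPM in the CNC libraries. Of the dissociation response genes *Fos*, *Atf3* and *Fosb* were in positions 191, 299 and 751, with r of 0.889, 0.865 and 0.792 against 0.818 for *Mtf1*. They do not stand for the whole list of 12 such genes. *Jund* and *Hspa1a*, at 18.5 and 73.4 TPM, were highest in SHF replicate 2, where *Mt1* was lowest. The r values describe 6 points that share their libraries, and r was still 0.953 at position 37.

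Metallothioneins are also known to respond to glucocorticoids, and tissue digestion is known to induce immediate early genes. The summed TPM of 7 glucocorticoid-responsive genes, led by *Errfi1* and *Tsc22d3*, was 1291, 768 and 2079.7 in the SHF libraries and 783, 1487 and 920.2 in the CNC libraries. That of 12 dissociation response genes, led by *Fos* and *Junb*, was 12341, 5541 and 9947 in the SHF libraries and 7666, 6504 and 7329.9 in the CNC libraries. SHF replicate 2 had the lowest sum of both lists, as it did of *Mt1* and *Mt2*, and none of the genes of either list passed the test by limma. For the glucocorticoid list this rested on *Errfi1*, at 191 TPM in SHF replicate 2 and between 594 and 1514 TPM in the other libraries, whereas *Tsc22d3*, at 364 TPM, was second in order only to CNC replicate 2 at 455 TPM. For the dissociation list, *Fos*, *Atf3* and *Fosb* were lowest in SHF replicate 2, whereas *Jund* and *Hspa1a* were highest there. Among the CNC libraries, replicate 2 had the lowest dissociation sum but the highest *Mt1* and *Mt2*, at 1688 and 587 TPM. The part of either response in the metallothionein values was not tested.

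The promoters of both metallothionein genes are shown because metal response elements, to which MTF1 binds, are what these genes are known for. The cores searched were TGCACNC and TGCGCNC on both strands, in the 250 bases before each RefSeq start on GRCm38.p6, and matches are in capitals. The window of *Mt1* is printed only as far as the base before its GENCODE start at 94179082, which lies upstream of its RefSeq start at 94179089, and positions are counted from the RefSeq start.
*Mt1*, chr8:94178839-94179081, plus strand: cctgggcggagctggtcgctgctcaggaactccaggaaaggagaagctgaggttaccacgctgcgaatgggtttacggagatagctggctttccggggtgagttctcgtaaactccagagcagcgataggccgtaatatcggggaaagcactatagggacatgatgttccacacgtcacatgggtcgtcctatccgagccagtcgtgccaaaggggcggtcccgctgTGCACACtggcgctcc
*Mt2*, chr8:94172368-94172617, plus strand: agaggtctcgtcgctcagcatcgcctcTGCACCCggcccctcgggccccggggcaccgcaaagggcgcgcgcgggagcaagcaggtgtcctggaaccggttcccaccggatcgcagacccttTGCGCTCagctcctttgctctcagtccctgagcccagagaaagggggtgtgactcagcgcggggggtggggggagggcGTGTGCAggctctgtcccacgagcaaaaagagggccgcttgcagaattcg
The window of *Mt2* held 3 matches, at positions -223, -128 and -50 from the start, the last on the minus strand, and that of *Mt1* held 1, at -23. Of 32851 promoters 21.4% held at least 1 match and 1.26% held at least 3. No match was found in the windows of the other 7 members with a promoter in the RefSeq table, which does not list *Sod3*. The core of the antioxidant response element bound by Nrf2, TGACNNNGC on either strand, was present in *Prdx1* at -133, *Mt2* at -79 and *Sod1* at -56, and in 10.2% of all promoters. No match overlapped a match of the other motif. A match is a run of letters and not a measured binding site, and the starts are those annotated, which need not be the starts used in these cells. If transcription of *Mt1* begins downstream of the annotated start, its window misses part of the promoter, so the numbers of matches in the *Mt1* and *Mt2* windows are not compared.

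Set side by side, the 10 differences between the lineages had no common direction. By the sign of SHF minus CNC, 5 members were positive and 5 negative, with a median of -0.02 on the log2 scale, against 0.03 over all 10185 genes. Among members, 0 of 10 passed the adjusted threshold, as did 0% of all genes tested, where the smallest adjusted p by limma was 0.433. At an unadjusted p below 0.05 limma called *Gpx3* and *Sod3*, 2 of 10, against 597 of 10185 genes, or 5.86%. Neither held in every setting, since without a trend in the eBayes step the unadjusted limma p was 0.159 for *Gpx3* and 0.184 for *Sod3*. With libraries left out, it was 0.0925, 0.0527 and 0.081 for *Gpx3* without SHF replicate 3, CNC replicate 2 and CNC replicate 3 in turn, and 0.0728, 0.0651 and 0.0916 for *Sod3* without SHF replicate 2, CNC replicate 1 and CNC replicate 3 in turn. The exact two-sided permutation p was 0.2 for each of these genes. The study filtered for lineage-exclusive transcripts with a threshold of 5 TPM, and this was read here as above 5 TPM in each library of a lineage and 0 in each of the other. That rule took 0 of the 10 members, and 0.24% of the 14179 rows it was applied to. The 95% intervals of 8 of the 10 members included 0.

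**Figure D3:**
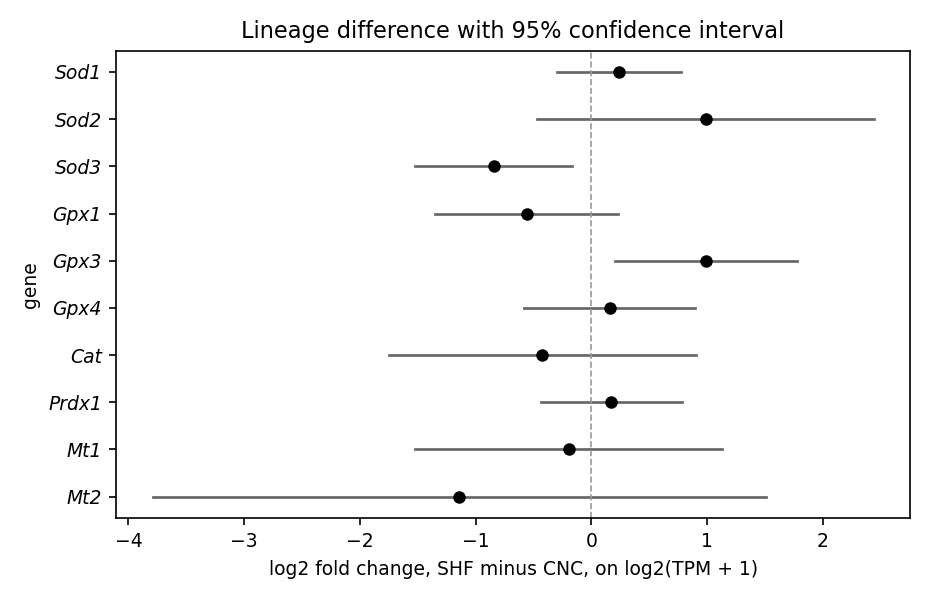
Difference between lineages, SHF minus CNC, on the log2(TPM + 1) scale for the 10 genes, with 95% intervals from limma (n = 3 libraries per lineage) and a line at 0. The intervals of *Gpx3*, from 0.20 to 1.78, and *Sod3*, from -1.52 to -0.16, leave out 0 before adjustment for 10185 genes, and that of *Mt2* is the widest.

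The members differed widely in their spread within a lineage. The residual SD on the log2 scale was 0.24 for *Sod1* and 0.30 for *Prdx1*, and at the other end 0.85 for *Cat*, 1.14 for *Mt1* and 2.37 for *Mt2*. The median over members was 0.43, close to the 0.47 of the 1522 tested genes whose mean reached 100 TPM and well below the 1.19 of all tested genes, most of which are lower in level.

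The enzymes that supply or share the work of these members were read from 7 further lists, of which 81 of 102 genes were tested. None of the 81 passed the test by limma, 3 had an unadjusted p below 0.05, and their median SHF minus CNC was -0.02 on the log2 scale. Of the 81 genes 4 were higher in every SHF library, or 4.94% against 6.11% of all genes tested, and 3 in every CNC library, or 3.7% against 5.68%. The 4 were *Ccs*, *Atp7a*, *Hmox2*, a heme oxygenase, and *Maob*, a monoamine oxidase that releases peroxide, and the 3 were *Gpx8*, a peroxidase of the endoplasmic reticulum, *Pgd*, an NADPH-producing enzyme, and *Selm*, an endoplasmic reticulum selenoprotein now called *Selenom*. These 7 were picked out after their values were seen.

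Of 7 other peroxide-removing enzymes tested, 2 had a positive and 5 a negative difference. *Prdx4*, of the endoplasmic reticulum, had means of 594 ± 142 and 615 ± 268 TPM, and *Prdx2*, of the cytosol, had means of 576 ± 136 and 460.3 ± 339 TPM (SD, n = 3 each, SHF then CNC here and in the lists that follow). *Gpx8* was at 311, 345 and 254 TPM in the SHF libraries and at 435, 437 and 530.4 TPM in the CNC libraries, and its difference of -0.63 on the log2 scale had an adjusted p of 0.855 by limma. *Gpx2*, *Gpx5* and *Gpx6* were listed at 0 in all 6 libraries.

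Of 13 genes of the thioredoxin and glutaredoxin system tested, 8 were positive and 5 negative, with a median of 0.25. *Txn1*, the thioredoxin that reduces peroxiredoxins again, had means of 334 ± 47.0 and 276 ± 15.7 TPM, and its mitochondrial form *Txn2* had 215 ± 68.8 and 134 ± 39.3 TPM. The glutaredoxin *Glrx* had 101 ± 35.4 and 84.9 ± 30.2 TPM. Of 16 genes of glutathione synthesis, recycling and transfer, 7 were positive and 9 negative, with a median of -0.19. The glutathione transferases *Gstm1*, *Gstp1* and *Gstm2* were the most abundant of these, with means of 949 ± 265 and 853 ± 178, 634 ± 30.8 and 806 ± 156, and 445 ± 51.6 and 559.9 ± 87.7 TPM.

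Of 15 genes of the Nrf2 pathway and heme breakdown, 8 were positive and 7 negative, with a median of 0.21. *Blvrb*, a biliverdin reductase, had means of 134 ± 58.6 and 186 ± 27.3 TPM, and *Taldo1*, of the pentose phosphate pathway, had 128 ± 23.8 and 105 ± 18.2 TPM. *Nfe2l2* had 112 ± 83.0 and 105 ± 29.7 TPM. *Hmox2* was at 135, 146 and 95 TPM in the SHF libraries and at 65.3, 67.8 and 54.8 TPM in the CNC libraries (0.97 on the log2 scale; limma, adjusted p = 0.845).

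Of 10 metal handling genes tested, 6 were positive and 4 negative, with a median of 0.09. The ferritin subunits *Fth1* and *Ftl1*, which store iron, exceeded every member in mean, with 6366 ± 594 and 6047 ± 912 TPM and with 2981 ± 209 and 3151 ± 325 TPM. *Mt3* and *Mt4*, the other metallothionein genes of the list, were at 0 in all 6 libraries, so that the metallothionein RNA listed for this family came from *Mt1* and *Mt2*.

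Of 13 genes of selenoprotein synthesis and other selenoproteins, 4 were positive and 9 negative, with a median of -0.56. *Sepp1*, the secreted selenium carrier now called *Selenop*, was at 1697, 2268 and 2965 TPM in the SHF libraries and at 2736, 4091 and 3492 TPM in the CNC libraries, and SHF minus CNC was -0.59 (limma, unadjusted p = 0.0456, adjusted p = 0.83). *Selk* and *Sepw1* had means of 535 ± 148 and 585 ± 220 TPM and of 543 ± 105 and 503 ± 82.9 TPM. *Gpx3*, the other secreted selenoprotein named here, was on the opposite side of 0.

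Of 7 oxidant-producing genes tested, 4 were positive and 3 negative, with a median of 0.55. *Cyba*, the p22phox subunit of NADPH oxidases, had means of 204 ± 62.3 and 142 ± 51.5 TPM, *Nox4*, the oxidase that makes peroxide in vascular cells, had 85.7 ± 12.7 and 119 ± 44.3 TPM, and *Xdh*, xanthine dehydrogenase, had 75.9 ± 61.7 and 102 ± 42.1 TPM.

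**Figure D4:**
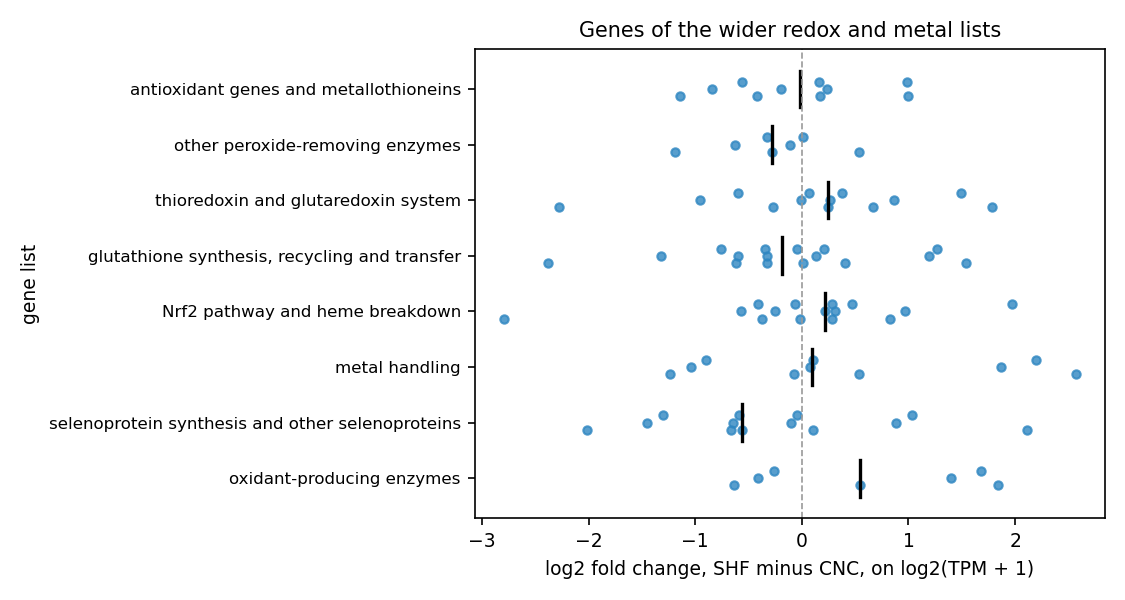
SHF minus CNC on the log2(TPM + 1) scale for each tested gene (points) of the 10 members and of the 7 further lists, with the median of each list as a bar and a line at 0. Every list has genes on both sides of 0, and the medians run from -0.56 for selenoprotein genes to 0.55 for oxidant-producing genes.

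The cell content of the libraries was read from marker lists. Fibroblast genes, led by *Dcn* and *Col3a1*, were present in every library with none at 0, and 6 of the 10 were higher in every CNC library, against 5.68% of all genes tested. The 12 smooth muscle genes, led by *Myl9* and *Acta2*, summed to between 1425 and 3271 TPM over the 6 libraries, with the lineages overlapping. The 8 endothelial genes, led by *Pecam1* and *Emcn*, summed to 51.2, 581 and 463 TPM in the SHF libraries and to 24.1, 37.9 and 21.8 TPM in the CNC libraries, where *Cdh5*, *Vwf*, *Tie1*, *Cldn5* and *Emcn* were listed at 0 in each library. The endothelial sum was thus higher in every SHF library, as *Sod2* was, whereas of the 5 endothelial genes tested 2 were higher in every SHF library, against 6.11% of all genes. The endothelial sum varied widely among the SHF libraries, where *Sod2* was nearly flat, and the part of these genes in the *Sod2* values was not tested.

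Erythroid genes, led by *Hba-a1* and *Hbb-bt*, reached 380.02 TPM in SHF replicate 1 and at most 48.7 TPM elsewhere, and leukocyte genes, led by *C1qb* and *Lyz2*, reached 269.8 TPM in CNC replicate 2 and at most 34.5 TPM elsewhere, with *Ptprc*, *Adgre1* and *Cd3e* at 0 in all libraries. The part of the erythroid and leukocyte genes in the members' values was not tested. Cardiomyocyte genes, led by *Tnnt2* and *Myl3*, summed to 146, 94.0 and 151 TPM in the SHF libraries and to 37.7, 0 and 0 TPM in the CNC libraries, so that this sum too was higher in every SHF library, and its part in the *Sod2* values was not tested. Adipocyte genes, led by *Fabp4* and *Plin1*, and mesothelial genes, led by *Upk3b* and *Krt19*, summed to at most 69.9 and 58 TPM in any library. None of the genes tested in these lists passed by limma, but few were tested outside the fibroblast and smooth muscle lists: 5 of 8 endothelial, 3 of 8 leukocyte, 2 of 6 cardiomyocyte, 1 of 4 adipocyte and 0 of the erythroid and mesothelial genes. Of the sex-linked genes, *Xist* was above 0 only in SHF replicates 2 and 3, and *Ddx3y* was at 0 in these same libraries and between 42.2 and 61.3 TPM in the other 4, so the pattern of *Xist* without *Ddx3y* was seen in 2 of 3 SHF libraries and 0 of 3 CNC libraries. Sex may thus differ in part along with the lineage, and its part in the differences was not tested.

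**Figure D5:**
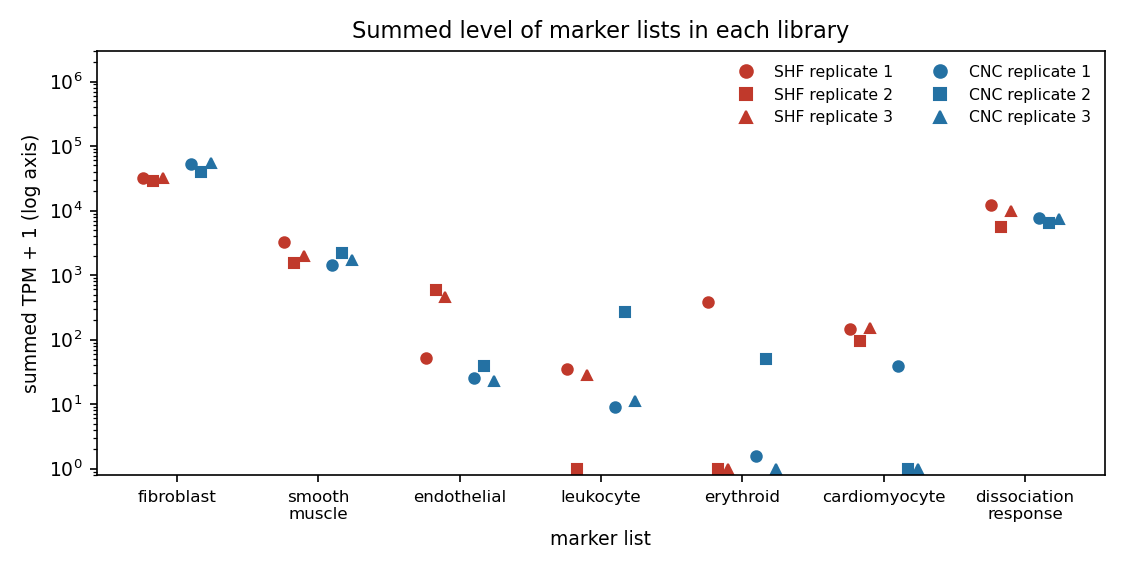
Summed TPM + 1 (log axis) of 7 marker lists in each of the 6 libraries, coloured by lineage, with a sum of 0 drawn at 1. Fibroblast genes are the highest cell type list in every library, at 29221 to 54798 TPM, and endothelial sums are higher in the SHF libraries, from 51.2 to 581 TPM, than in the CNC libraries, from 21.8 to 37.9 TPM.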

How the data were processed

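Per the submitters' processing notes the authors used RSEM 1.2.25, with bowtie2 as its aligner, on mm10, and the deposited TPM values fill 1 column per library and 24421 rows. The gene annotation is not given in the sources used here. TPM sums to 1000000 in each library and keeps no depth, so depth is unknown and no counting interval or detection limit could be given, and a 0 is given as listed at 0. RNA was normalised to the number of sorted cells before amplification, and no molecular identifiers were used.

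From the deposited TPM, SHF was compared with CNC by limma 3.58.1 in R 4.3.3 (lmFit, eBayes with a trend) on log2(TPM + 1), a scale that understates the change of low genes, over the 10185 genes that reached 1 TPM in 3 or more libraries, and p-values were adjusted by Benjamini and Hochberg's method with a threshold of 0.05. Single genes were tested by exact two-sided permutation. The 3 libraries per lineage are biological replicates per a supplementary figure legend of the study, and p-values measure the spread between these libraries only. The members and lists were chosen with earlier results of these data known. Genes named were the 10 members, the 3 most abundant of each pathway list, the 2 most abundant of each cell type list with defining markers at 0, *Mtf1*, *Nfe2l2*, and the 3 genes with the highest Pearson r with *Mt1*. *Ccs*, *Atp7a*, *Hmox2*, *Maob*, *Pgd*, *Selm*, *Gm13305*, *Fxyd6*, *Atf3*, *Fosb*, *Jund*, *Hspa1a*, other genes listed at 0 and the sex-linked genes were named outside this rule, after their values were seen. Of 102 pathway genes 101 were matched, 6 of them by an older symbol, and *Selenof* was not matched. Positions and coding sequences are from GENCODE M21 and promoters from RefSeq, both on GRCm38. RefSeq held promoters of 9 of the 10 members. Some results are not reported here. Alternatives were other pseudocounts, filters, rescalings and variance models, a replicate block, and each library left out. Python 3.11.15, pandas 2.3.3, scipy 1.17.1 and matplotlib 3.10.9 were used.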

Additional observations from a re-analysis of the deposited data

How the results depend on the processing

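No member passed the adjusted threshold under any of the alternatives, with smallest adjusted p-values by limma of 0.458 over the other settings and 0.518 with a library left out. Over all genes the count was 0, as in the result given, except 1 with a pseudocount of 5 (*Gm13305*, higher in CNC) and 1 with a filter of at least 5 TPM in all 6 libraries (*Fxyd6*, higher in SHF), which tests fewer genes. The members kept their sign in 89 of 90 values under the other settings, and *Mt1* turned to 0.26 with library quality weights, which also moved *Mt2* from -1.14 to -0.29 and *Cat* from -0.42 to -0.80. With each library left out, 55 of 60 values kept their sign. The log2 difference then ran from -0.0755 to 0.46 for *Gpx4* (positive in all but the fit without SHF replicate 1), from -0.79 to 0.23 for *Cat* (negative in all but the fit without CNC replicate 3), from -0.72 to 0.65 for *Mt1* (0.65 when SHF replicate 2 was left out and 0.17 when CNC replicate 2 was) and from -2.095 to 0.75 for *Mt2* (0.75 without SHF replicate 2). The cause of these changes of sign was not tested.

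The number of members whose lineages did not overlap was 1, and it was 2 after median-of-ratios rescaling, which added *Sod3*. It ran from 1 to 4 with a library left out. Leaving out SHF replicate 1 gave 4 (*Sod1*, *Sod2*, *Sod3* and *Gpx1*), SHF replicate 3 or CNC replicate 2 gave 3, SHF replicate 2 or CNC replicate 1 gave 2, and CNC replicate 3 gave 1. Of all genes tested 11.8% did not overlap with 6 libraries and 20.1% to 25% with 5, where fewer orders of the libraries have to hold. *Sod2* was among them each time. No member was lineage-exclusive under any setting, and r between *Mt1* and *Mt2* stayed between 0.95 and 0.97. Libraries of the same replicate number had correlations of their deviations of -0.011, -0.0044 and -0.011. With 3 libraries per lineage these values cannot show whether the libraries were paired. With a replicate block the counts of genes and of members past the threshold remained 0. The depth behind TPM is unknown, so depth could not be weighed for any value.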
